A study of Homo sapiens with 4 samples.

Results

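The genes for 7 secreted cytokines were followed: the colony-stimulating factors CSF1, CSF2 and CSF3, the related factors IL6 and LIF, and the interleukin-1 genes IL1A and IL1B. They were found by symbol among the 36602 genes of the deposited table, and all 7 were present. The cells were OVCAR5, an established human ovarian carcinoma line, cultured without supernatant or with the conditioned medium of T cells grown together with tumor cells. The 24 conditions combined 6 supernatant levels (unstimulated, undiluted, and dilutions of 5, 25, 125 and 625 times) with 4 exposure times (2, 6, 12 and 24 h). All were pooled and read in 1 droplet-based 3′ single-cell run, in which pairs of antibody-bound oligonucleotide tags (HTO, hashtags) mark the culture of origin.

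The sources used here do not tie a tag pair to a condition, so no culture could be given a level or a time. Each of the 24 tag pairs in use is therefore called a hashtag sample and named by its tags, such as HTO3/HTO9. The samples are not replicates, each condition was 1 culture, and no group comparison or test across samples was made. Intervals below are 95% intervals for counting error only.

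CSF1 (M-CSF), CSF2 (GM-CSF) and CSF3 (G-CSF) direct the growth and activation of macrophages, of granulocytes together with macrophages, and of neutrophils. IL6 and LIF act through receptors that contain the shared chain IL6ST (gp130) and signal to STAT3. IL1A and IL1B encode the 2 agonists of the type 1 interleukin-1 receptor: IL1A is active as a precursor in the cell that makes it, whereas IL1B has to be cleaved, classically by caspase-1. Several of these genes are textbook targets of NF-κB, which inflammatory stimuli such as TNF and interleukin-1 activate, and their mRNAs are often short-lived.

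The 250 bases before the transcription start are shown for the members that the RefSeq promoter table (GRCh38.p14) holds, because the levels of these genes across samples are set beside NF-κB target genes below. The table held 4 of the 7. Each is written 5′ to 3′ on the strand of its gene. The starts are those of that table: the IL6 window lies inside, and the IL1A window overlaps, the wider gene span of the GENCODE annotation given below. Capitals mark matches, on either strand, to the NF-κB consensus, to the AP-1 motif TGANTCA, to the C/EBP motif TTGCNNAA and to GAGATTCC, the core of the CLE1 element known from the CSF2 promoter.
CSF2, chr5:132073539-132073788, plus strand: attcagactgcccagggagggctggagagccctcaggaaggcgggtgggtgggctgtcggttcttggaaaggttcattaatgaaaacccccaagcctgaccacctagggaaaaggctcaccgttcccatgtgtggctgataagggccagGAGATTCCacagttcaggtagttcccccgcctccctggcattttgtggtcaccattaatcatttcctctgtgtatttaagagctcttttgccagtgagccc
IL6, chr7:22726950-22727199, plus strand: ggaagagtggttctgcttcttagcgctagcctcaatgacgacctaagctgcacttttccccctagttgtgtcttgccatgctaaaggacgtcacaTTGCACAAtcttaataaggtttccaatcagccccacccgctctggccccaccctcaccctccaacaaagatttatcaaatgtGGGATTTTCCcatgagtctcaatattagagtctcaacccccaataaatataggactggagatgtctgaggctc
IL1A, chr2:112784494-112784743, minus strand: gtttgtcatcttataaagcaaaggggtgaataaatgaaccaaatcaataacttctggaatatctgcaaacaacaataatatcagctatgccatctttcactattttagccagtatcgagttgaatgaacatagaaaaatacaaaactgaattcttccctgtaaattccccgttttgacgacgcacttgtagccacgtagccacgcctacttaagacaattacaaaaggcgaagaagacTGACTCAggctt
IL1B, chr2:112836780-112837029, minus strand: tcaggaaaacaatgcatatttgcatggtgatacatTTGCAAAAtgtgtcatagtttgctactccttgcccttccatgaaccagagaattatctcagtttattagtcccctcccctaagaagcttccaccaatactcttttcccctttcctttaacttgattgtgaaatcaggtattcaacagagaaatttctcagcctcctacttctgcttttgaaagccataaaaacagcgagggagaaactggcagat

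The IL6 window held the NF-κB consensus at positions -73 to -64 from the start and a C/EBP match at -155 to -148. The CSF2, IL1A and IL1B windows held no match to the NF-κB consensus. Over 35116 promoters of the same length, 9.96% held the NF-κB consensus and 9.05% the C/EBP motif. IL1B held a C/EBP match at -215 to -208, and IL1A held an AP-1 match at -12 to -6, a motif found in 6.57% of promoters. CSF2 held GAGATTCC at -101 to -94. This motif is known from the CSF2 promoter itself, so the match was given in advance, and 0.735% of promoters contained it. The matches describe letters in these windows, and binding was not measured.

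The matrix held 10660 barcodes, of which 6408 passed a minimum of 1000 genes and a limit of 20% mitochondrial UMIs (unique molecular identifiers, each standing for 1 captured RNA molecule). A clear tag pair was found for 5298 of them, 137 to 272 cells a sample, with 1863154 to 3904112 UMIs summed per sample. Levels are CPM (counts of the gene divided by the summed UMIs of the sample, in the usual scaling), and 3 counts corresponded to 0.768 to 1.61 CPM. HTO3/HTO9 had the lowest median depth (9389 UMIs a cell) and the highest median mitochondrial share (13.8%). It was the end of a gradient: HTO5/HTO8 followed with 10714 UMIs and 12.8%, and HTO4/HTO9 had 12472 UMIs and 12.2%. HTO3/HTO9 also had the lowest summed level of 8 epithelial markers, 1833 CPM against a median of 3182. Its summed level of 6 myeloid markers was the highest, 55.3 CPM against 28.3, with 53.7 CPM from CD68 alone. HTO5/HTO8 came next for these lists, with 2090 and 48.2 CPM, then HTO4/HTO9 with 2151 and 37.7 CPM. The members' highest levels and ranges that rest on HTO3/HTO9 are also given without that sample, which leaves the shifts of the others in place. The part of these shifts in the results was not tested. The keratin genes KRT7, KRT8, KRT18 and KRT19 had means of 520, 706, 1589 and 175 CPM, and EPCAM 46.8 CPM. CDH1, PAX8 and MUC16 were low, at 2.26, 3.09 and 0.0571 CPM. Of 8 T cell markers, CD3E, CD3G, CD2 and PTPRC had 0 UMIs, CD3D, TRAC and TRBC1 had 4, 2 and 3, and TRBC2 had 201; their summed level ran from 0 to 6.38 CPM over the samples. The myeloid markers TYROBP and AIF1 had 0 UMIs and FCER1G had 3, while CD68 had a mean of 28.3 CPM.

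How far a gene varied over the samples was expressed as its range, the maximum minus the minimum of log2(CPM + 10). A mean level of 20 CPM was required, which 6 of the 7 members reached and IL6, at 3.66 CPM, did not. As a description, 5 of those 6 had a range of 4-fold or more (2 on this scale): CSF1, CSF2, CSF3, IL1A and IL1B. CSF2, CSF3 and IL1A reached the mean only through their own highest sample, without which they averaged 19.4, 14.4 and 19.8 CPM, so their count is not read as support. CSF1, LIF and IL1B still passed without theirs, at 24.2, 20.4 and 60.4 CPM. Over all 5767 genes that passed the same mean filter, 4.13% ranged that far. The median range was 3.88 for the 6 members and 0.74 for all genes tested. It too includes CSF2, CSF3 and IL1A, so it is not read as support either. CSF1, LIF and IL1B, which passed regardless, had ranges of 2.54, 1.07 and 4.51, so LIF did not reach 4-fold. Without HTO3/HTO9, 4 members passed the mean filter and 3 of them (CSF1, CSF2 and IL1B) ranged 4-fold or more, beside 2.91% of all genes. CSF3 and IL1A then fell under the mean filter, while their ranges were still 3.38 and 3.22.

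**Figure D1:**
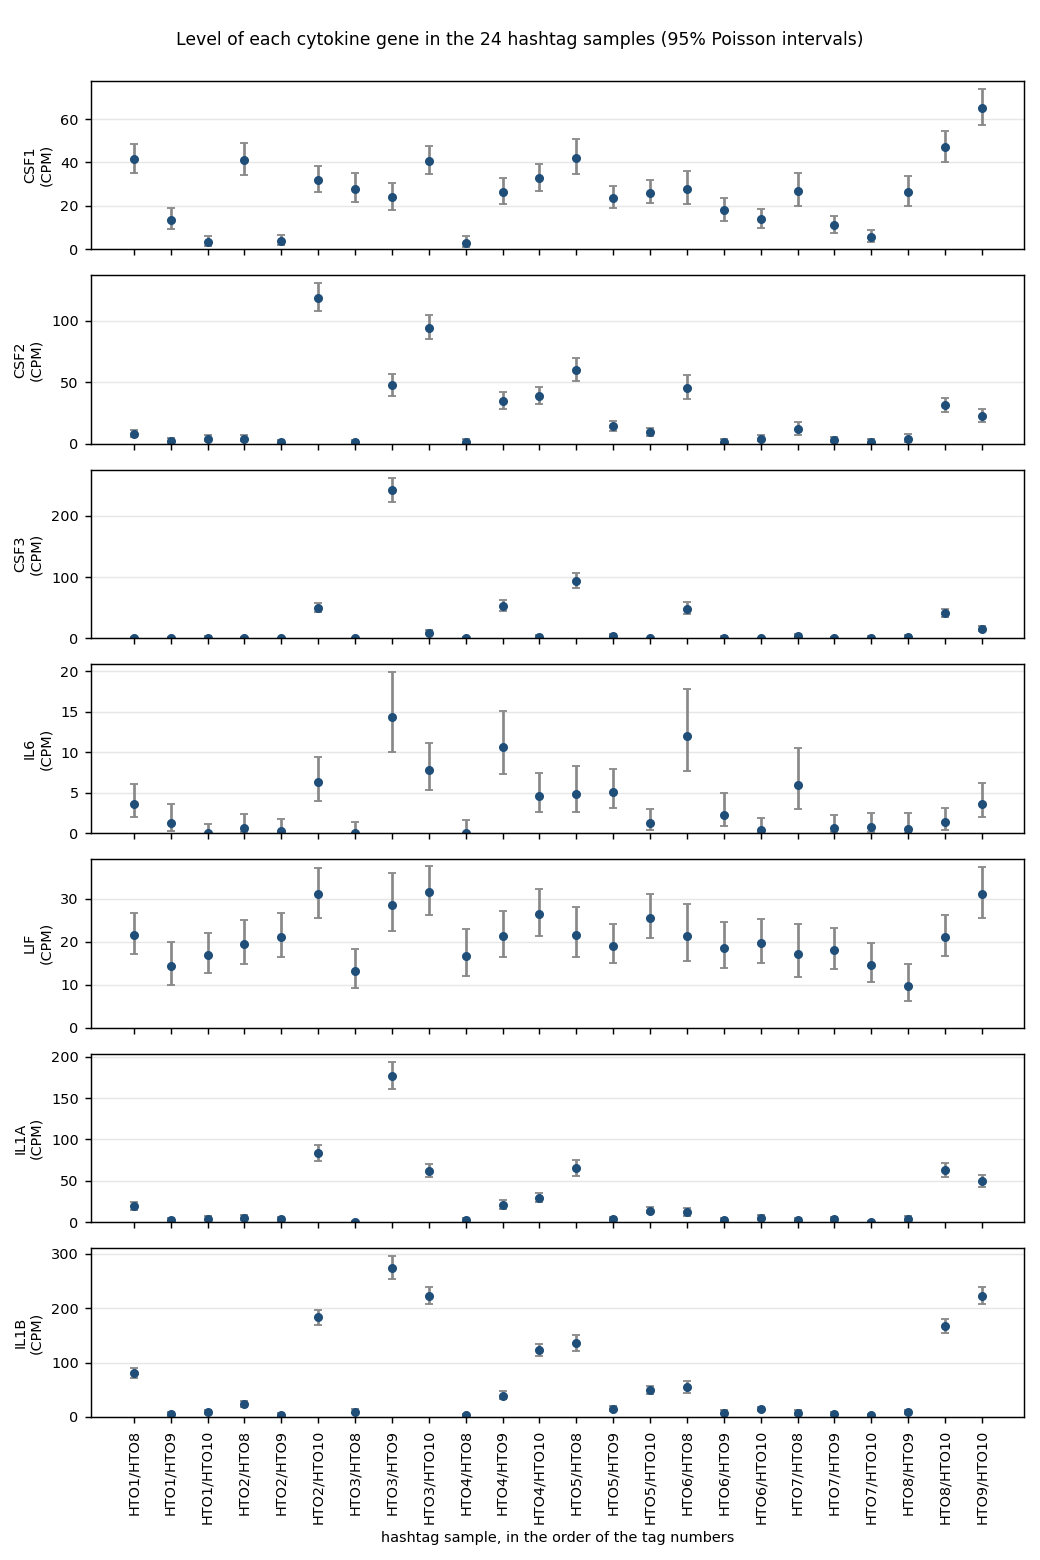
Level of each of the 7 cytokine genes (vertical axes, CPM, each from 0) in the 24 hashtag samples, in the order of their tag numbers, with 95% Poisson intervals as bars. CSF3 and IL1A peak in HTO3/HTO9 at 242 and 177 CPM, CSF2 peaks in HTO2/HTO10 at 119 CPM, and LIF stays between 9.76 and 31.6 CPM.

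CSF1 (ENSG00000184371, chromosome 1, 109910242 to 109930992, plus strand) encodes the macrophage growth factor. Its level was 2.94 CPM in HTO4/HTO8 (7 UMIs), had a median of 26.2 CPM and reached 65.2 CPM in HTO9/HTO10, a ratio of 22.2 (10.6 to 55.8). Only 4 samples, HTO4/HTO8, HTO1/HTO10, HTO2/HTO9 and HTO7/HTO10, were under 10 CPM, at 2.94, 3.37, 3.67 and 5.56 CPM. The highest sample lay above its neighbour HTO8/HTO10 (46.9 CPM) with no overlap of intervals, and the other 22 of 23 neighbouring steps overlapped. HTO3/HTO9, highest for 4 other members, was in the middle for CSF1 with 23.9 CPM (18.2 to 30.7). CSF1 was detected in 26.9% of all tagged cells and in 58.3% of the cells of HTO9/HTO10.

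CSF2 (ENSG00000164400, chromosome 5, 132073790 to 132076170, plus strand) encodes GM-CSF. It ran from 1.10 CPM in HTO3/HTO8 (3 UMIs) through a median of 8.76 CPM to 119 CPM in HTO2/HTO10 (436 UMIs), a ratio of 108 (36.6 to 525). HTO3/HTO10 followed with 94.4 CPM, then HTO5/HTO8 with 59.7 CPM and HTO3/HTO9 with 47.4 CPM. The steps from the highest sample to the second and from the second to the third were the only ones of 23 whose intervals did not overlap. T cells are a classical source of GM-CSF, and the medium came from a T cell coculture. Only 4 of the 5298 tagged cells had a UMI of CD3D, CD3E or CD3G, 1 of them among the 943 cells with a CSF2 UMI, and 25 cells had at least 3 UMIs of the 8 T cell markers.

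CSF3 (ENSG00000108342, chromosome 17, 40015361 to 40017813, plus strand) encodes G-CSF. It had 0 UMIs in HTO1/HTO9, HTO2/HTO9, HTO3/HTO8 and HTO6/HTO10, a median of 1.80 CPM and 242 CPM in HTO3/HTO9 (607 UMIs; 223 to 262). Set against 3 counts in HTO6/HTO10, the highest level was at least 245-fold higher, and that of the second sample, HTO5/HTO8 (94.1 CPM), at least 95.4-fold. HTO4/HTO9, HTO2/HTO10, HTO6/HTO8 and HTO8/HTO10 followed with 53.0, 49.3, 48.7 and 40.8 CPM, and every other sample was at or under 15.8 CPM. Its range was 4.65 on the log2 scale, beside 4.51 for IL1B and 4.22 for IL1A. Without HTO3/HTO9 it was 3.38, under IL1B (4.22) and CSF2 (3.54), and with a pseudocount of 50 CPM it was 2.54 against 2.63 for IL1B.

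IL6 (ENSG00000136244, chromosome 7, 22725884 to 22732002, plus strand) was the least abundant member, with 259 UMIs in all tagged cells. It had 0 UMIs in HTO1/HTO10, HTO3/HTO8 and HTO4/HTO8, a median of 1.81 CPM, and its highest levels were 14.3 CPM in HTO3/HTO9 (36 UMIs; 10.0 to 19.8), 11.9 CPM in HTO6/HTO8 and 10.7 CPM in HTO4/HTO9. Intervals of all 23 pairs of neighbours overlapped, so its order among the upper samples was not resolved at this depth. Against 3 counts in the lowest sample, the highest was at least 11.4-fold higher.

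LIF (ENSG00000128342, chromosome 22, 30240447 to 30246851, minus strand) was detected in every sample and varied least. It ran from 9.76 CPM in HTO8/HTO9 (22 UMIs) through a median of 20.4 CPM to 31.6 CPM in HTO3/HTO10 (121 UMIs), a ratio of 3.24 (2.04 to 5.35). The samples HTO9/HTO10, HTO2/HTO10 and HTO3/HTO9 were close to the highest, at 31.1, 31.0 and 28.7 CPM. All 23 neighbouring steps overlapped, and 20 samples lay within 2-fold of the highest.

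IL1A (ENSG00000115008, chromosome 2, 112773915 to 112784590, minus strand) and IL1B (ENSG00000125538, chromosome 2, 112829751 to 112836903, minus strand) are neighbours 45160 bp apart. IL1A had 0 UMIs in HTO3/HTO8, a median of 4.94 CPM and 177 CPM in HTO3/HTO9 (444 UMIs; 161 to 194), at least 160-fold more than 3 counts in the lowest sample. HTO2/HTO10 was second with 83.3 CPM, at least 75.6-fold more, and HTO5/HTO8, HTO8/HTO10 and HTO3/HTO10 followed with 65.0, 62.9 and 61.8 CPM. The highest sample was separate from all others. The intervals of HTO2/HTO10 (74.3 to 93.2 CPM) and HTO5/HTO8 (55.7 to 75.4 CPM) overlapped, and the 3 samples that followed the second could not be ordered.

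IL1B was the most abundant member, with 5496 UMIs. Its level was 2.52 CPM in HTO4/HTO8 (6 UMIs), had a median of 19.1 CPM and reached 275 CPM in HTO3/HTO9 (690 UMIs), a ratio of 109 (49.8 to 298), or 88.7 without HTO3/HTO9. HTO9/HTO10 and HTO3/HTO10 were next, both at 223 CPM, followed by HTO2/HTO10 at 183 CPM and HTO8/HTO10 at 167 CPM. In contrast to CSF3, 5 samples lay within 2-fold of the highest. The intervals of 17 of 23 neighbouring steps overlapped.

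Most of the well-detected genes beside the members in the genome varied less. PSMD3 and MED24 flank CSF3 and had ranges of 0.56 and 0.57, although MED24, at a mean of 18.8 CPM, was under the mean filter. IL6 lies between RAPGEF5 and TOMM7, with ranges of 1.01 and 0.28 against 1.28 for IL6, RAPGEF5 being under the mean filter too. AHCYL1 beside CSF1 and P4HA2 beside CSF2 had 0.87 and 0.96. CKAP2L, next to IL1A, had a range of 1.64, wider than that of LIF. IL3, next to CSF2, GSTM5, next to CSF1, and HORMAD2, next to LIF, had 0 UMIs in all tagged cells. OSM, next to LIF, had 2, and IL37, next to IL1B, had 9. At such counts the range is bound to be small, so these genes allow no comparison.

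The ratio between 2 members within a sample does not depend on the sample's total. For CSF3 against CSF2 it was 5.10 UMIs of CSF3 per UMI of CSF2 (4.18 to 6.26) in HTO3/HTO9. It was 1.58 (1.29 to 1.93) in HTO5/HTO8, 1.51 (1.18 to 1.96) in HTO4/HTO9 and 1.31 (1.02 to 1.68) in HTO8/HTO10. By contrast it was 0.415 (0.347 to 0.495) in HTO2/HTO10, 0.0994 (0.0686 to 0.140) in HTO3/HTO10 and 0.0662 (0.0296 to 0.129) in HTO4/HTO10. HTO5/HTO9, at 0.302 (0.161 to 0.536), and HTO9/HTO10, at 0.695 (0.487 to 0.987), were also below 1. Of the 10 samples with at least 50 UMIs of the pair, CSF3 thus had more UMIs in 4 and CSF2 in 5, with intervals that did not include 1. These intervals take UMIs as independent and do not cover the spread between cells. In HTO5/HTO8 the 252 CSF3 UMIs lay in 42 cells, 51 of them in 1 cell, while CSF2 was detected in 76 cells. The intervals of HTO8/HTO10 and HTO9/HTO10 came close to 1, so their order is not settled. In HTO6/HTO8 the ratio was 1.08 (0.801 to 1.45).

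**Figure D2:**
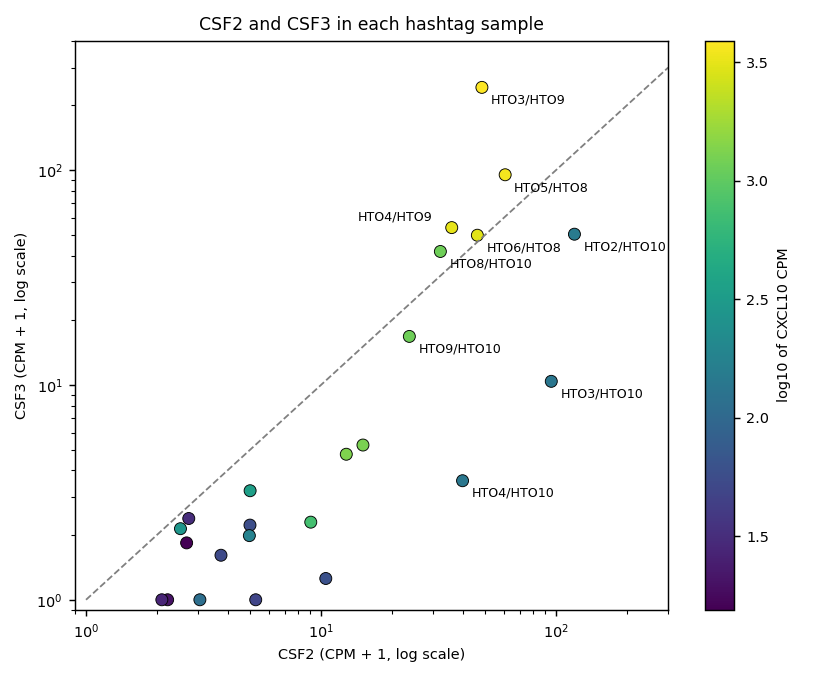
CSF3 against CSF2 in the 24 hashtag samples (CPM + 1, both axes logarithmic), coloured by the log10 of the CXCL10 level, with the line of equal values dashed. HTO3/HTO9 lies above the line, with 242 CPM of CSF3 and 47.4 CPM of CSF2, and HTO2/HTO10, HTO3/HTO10 and HTO4/HTO10 lie below it.

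For IL1A against IL1B the ratio was below 1 in every sample. It was highest among samples with at least 50 UMIs of the pair in HTO3/HTO9, at 0.643 (0.570 to 0.726), and was 0.530 (0.383 to 0.727) in HTO4/HTO9, 0.479 (0.398 to 0.576) in HTO5/HTO8 and 0.455 (0.396 to 0.522) in HTO2/HTO10. It was 0.278 (0.239 to 0.321) in HTO3/HTO10 and 0.222 (0.188 to 0.262) in HTO9/HTO10, although their IL1B levels came next after that of HTO3/HTO9. The 2 genes therefore did not keep 1 ratio across the samples.

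Correlations over the 24 samples are given as descriptions, with no p, because the samples share a pool and, by design, doses and times. On log2(CPM + 10), IL1A and IL1B had Pearson's r of 0.952 (Spearman's rho 0.920), the closest pair of members. CSF2 had r of 0.935 (rho 0.925) with NFKBIA, the inhibitor gene that NF-κB induces, and 0.564 (0.681) with CXCL10, a chemokine gene induced by interferon gamma. CSF3 had r of 0.708 (0.761) with NFKBIA and 0.737 (0.816) with CXCL10. Its r was 0.784 (0.837) with the summed level of 15 NF-κB target genes and 0.633 (0.710) with that of 15 interferon gamma target genes, so single genes and summed lists gave opposite orders. IL1B had r of 0.924 (0.927) with the NF-κB list and 0.503 (0.468) with the interferon gamma list. LIF had 0.746 (0.790) and 0.244 (0.251) with the same lists. Without HTO3/HTO9, CSF3 had r of 0.725 with NFKBIA and 0.709 with CXCL10, and IL1A had 0.959 with IL1B. The mitochondrial share moved with CSF3 (r 0.720, rho 0.476) and less with IL1B (0.277, 0.162), and its part in these values was not tested.

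**Figure D3:**
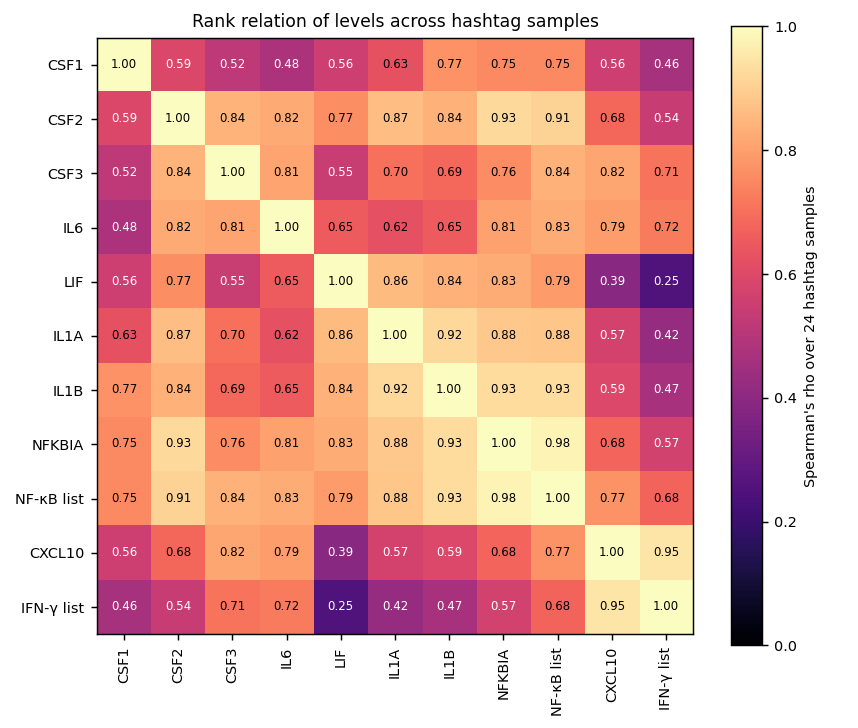
Spearman's rho of the levels of the 7 members, NFKBIA, the summed NF-κB list, CXCL10 and the summed interferon gamma list over the 24 hashtag samples, from 0 (dark) to 1 (light). LIF has the lowest values with the interferon gamma list (0.25) and CXCL10 (0.39), and CSF3 has 0.82 with CXCL10.

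The genes most like each member were the 3 non-members with the highest r. For CSF2 these were ZC3H12A (r 0.983), which encodes the RNase Regnase-1, then NFKBIZ (0.962) and the chemokine gene CXCL2 (0.950). CSF1 was most like RELB (0.911), an NF-κB subunit gene, ZNFX1 (0.909) and the adhesion gene ICAM1 (0.904). IL1B was most like TNFAIP3 (0.925), which encodes the NF-κB feedback inhibitor A20, CXCL8 (0.925) and NABP1 (0.923). LIF had TIFA (0.843), CXCL8 (0.819) and TNFAIP3 (0.797), with lower values than any other of the 6 members compared. For CSF3 they were SLC25A37 (0.943), BTG1 (0.938) and RNF19B (0.929), and for IL1A SLC25A37 (0.916), IER5 (0.906) and IFNGR2 (0.903). SLC25A37, a mitochondrial iron importer gene, is on both of the latter lists, and it was also highest in HTO3/HTO9, at 252 CPM. Without HTO3/HTO9, SLC25A37 (0.917) and BTG1 (0.902) were still the most like CSF3, followed by VCAM1 (0.893). For IL1A they were then IER5 (0.943), CCL20 (0.938) and CXCL8 (0.895). For CSF2 they were NFKBIZ (0.960), CXCL2 (0.948) and JUNB (0.948), without ZC3H12A. For IL1B they were CXCL8 (0.939), TIFA (0.933) and CCL2 (0.932), without TNFAIP3 and NABP1. LIF had PIM3 (0.800) in place of TNFAIP3, and CSF1 kept its 3 genes.

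Receptors for most of these ligands were scarce in the same cells. Of 11 receptor genes, 4 passed the mean filter and 0 ranged 4-fold or more. CSF1R, CSF2RB and CSF3R, the receptors that the colony-stimulating factors signal through, had 4, 1 and 5 UMIs in all tagged cells. By contrast the gp130 gene IL6ST had a mean of 67.9 CPM (39.5 to 102), LIFR 25.2 CPM (12.2 to 56.5), OSMR 38.9 CPM (26.9 to 57.1) and IL6R 21.8 CPM (11.9 to 35.5). IL1R1 had a mean of 1.47 CPM and its partner IL1RAP 12.3 CPM.

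Of 16 other ligands of these families, only IL18 passed the mean filter, with 49.6 CPM (22.4 to 69.3) and its lowest level in HTO6/HTO8. Among 5 antagonists and decoys, IL1RN, the natural interleukin-1 receptor antagonist, had 6 UMIs. IL18BP, which neutralizes interleukin-18, ran from 2.08 to 207 CPM with a range of 4.17 and was highest in HTO3/HTO9, without which its range was 3.71. SIGIRR, an inhibitory receptor of the family, ran from 41.8 to 115 CPM.

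Of 10 genes for processing and release, 7 passed the mean filter and 2, CASP4 and GSDMD, ranged 4-fold or more. CASP4, an inflammatory caspase gene, ran from 45.0 to 228 CPM, and GSDMD, whose product forms membrane pores, from 17.0 to 137 CPM, both highest in HTO5/HTO8. CASP1, whose product cleaves the IL1B precursor, had a mean of 6.41 CPM and NLRP3 2.95 CPM, each with 1 UMI in HTO2/HTO9. CASP1 ran from 0.306 CPM there to 28.7 CPM in HTO3/HTO9, with 26.7 CPM in the second sample. CAPN2, a calpain gene, was nearly level, from 121 to 177 CPM, and ADAM17, a sheddase of cell-surface proteins, ran from 27.6 to 86.0 CPM.

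Of 10 transcription factor genes, 9 passed the mean filter and 5 ranged 4-fold or more: NFKBIZ, CEBPB, CEBPD, JUNB and IRF1. NFKBIZ (7.14 to 139 CPM) and CEBPD (23.3 to 294 CPM) were highest in HTO2/HTO10, as CSF2 was. CEBPB (43.8 to 262 CPM) and JUNB (5.46 to 84.4 CPM) were highest in HTO3/HTO9, as CSF3 was. Without that sample their ranges were 1.67 and 2.41 in place of 2.34 and 2.61, so CEBPB no longer ranged 4-fold. IRF1, which the interferon gamma list also holds, ran from 60.1 to 1715 CPM. NFKB1, RELA, JUN and FOSL1 had ranges of 1.79, 1.25, 1.30 and 0.58.

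Among 8 genes that control mRNA stability, 5 passed the mean filter and 1, ZC3H12A, ranged 4-fold or more. ZC3H12A barely reached the mean filter and passed it only through its own highest sample, HTO2/HTO10. This count is therefore not read as support. Regnase-1 is known to degrade IL6 mRNA, and ZC3H12A was lowest in HTO4/HTO8 (0.84 CPM) and highest in HTO2/HTO10 (76.5 CPM). ZFP36L1, of the family that binds AU-rich elements, ran from 142 to 427 CPM. Of 10 genes of the STAT3 response and its control, 5 passed the mean filter and 1, BCL3, ranged 4-fold or more, from 3.82 to 56.1 CPM. SOCS3, the feedback inhibitor of gp130 signalling, ran from 8.88 to 61.8 CPM, a range of 1.93, and STAT3 from 45.6 to 101 CPM.

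In single cells, the variance of counts within samples was set against that of Poisson sampling at each cell's depth. A ratio of 1.5 or more was seen in 4 of the 6 members with a UMI in at least 5% of cells, against 6.6% of 10039 such genes. IL1B had a ratio of 9.34, CSF3 of 8.65, IL1A of 2.84 and CSF2 of 2.29. CSF1 and LIF were near Poisson sampling, at 1.24 and 1.14. IL6, detected in 2.51% of cells, had 3.91. With every cell thinned to 3000 UMIs the ratios fell to 2.94 for IL1B, 1.47 for IL1A, 1.24 for CSF2 and 2.76 for CSF3, which then no longer reached 5% of cells, so that IL1B alone was counted, beside 1.8% of the 6205 genes that reached 5% of thinned cells.

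In HTO3/HTO9, 119 of 246 cells had a CSF3 UMI (48.4%), 15 cells had at least 10 and the highest had 44. The top 25 cells, about 10%, held 60.6% of the CSF3 UMIs and 60.3% of the IL1B UMIs of that sample. For CSF1 in HTO9/HTO10 the top 10% held 36.6%, with a highest count of 7. The share of cells with a UMI was 65.6% for CSF2 in HTO2/HTO10 and 68.9% for IL1B in HTO3/HTO10. After thinning these were 24.2% and 38.2%. All samples were run together and would share any free RNA. In HTO3/HTO8, 0 of 194 cells had an IL1A UMI, and 3 cells of the total would be 1.55%. In the same sample 15 cells (7.73%) had an IL1B UMI and 34 (17.5%) a LIF UMI, and the lowest share of cells with IL1B in any sample was 3.03%, in HTO4/HTO8. The part of free RNA in these low shares was not tested.

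**Figure D4:**
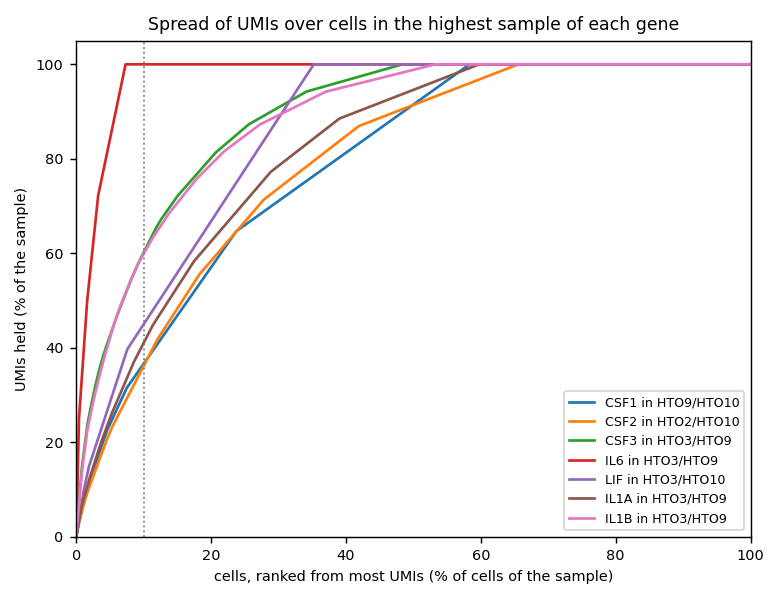
Cumulative share of a gene's UMIs (vertical axis, %) held by cells ranked from most UMIs (horizontal axis, % of the cells), for each member in its highest hashtag sample; the dotted line is at 10% of cells. CSF3 and IL1B in HTO3/HTO9 rise fastest after the sparse IL6, with 60.6% and 60.3% of UMIs in the top 10% of cells, and CSF1 and CSF2 are at 36.6% and 37.2%.

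Pairs of members were then counted in the same cell and set against the number that independent detection within each sample gives, after thinning to 3000 UMIs. IL1A and IL1B were both detected in 159 cells against 88.9, a ratio of 1.79 (1.52 to 2.09). For CSF2 and CSF3 the ratio was 1.94 (1.45 to 2.55), for CSF3 and IL1B 1.83 (1.48 to 2.24), for CSF2 and IL1B 1.37 (1.12 to 1.66) and for CSF3 and IL1A 1.45 (1.11 to 1.85). IL6 and IL1B were found together in 20 cells against 8.42 over all samples, a ratio of 2.37 (1.45 to 3.67). LIF with IL1B gave 0.985 (0.724 to 1.31) and CSF1 with IL1B 1.01 (0.789 to 1.28). After thinning, the intervals of all pairs that contain LIF or CSF1 included 1, as did those of CSF2 with IL6 and CSF3 with IL6, and the other 8 of 21 pairs were above 1. With all UMIs, 12 pairs were above 1. Among them were CSF1 with LIF (1.00 to 1.22), CSF1 with IL1A (1.02 to 1.26), LIF with IL1A (1.01 to 1.27) and CSF3 with IL6 (1.07 to 2.13). The same counts were not made for other pairs of genes, so they are not read as a trait of these members. Before thinning, 17.2% of all tagged cells had UMIs of at least 3 members, from 0 of 244 cells in HTO2/HTO9 (3 cells of the total would be 1.23%) to 56.9% in HTO2/HTO10. After thinning it was 2.64%, and HTO3/HTO9 was highest with 12.6%, before HTO2/HTO10 with 9.17%.

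A small set of cells with at least 0.05% of their UMIs in KRT81, a keratin gene, was described apart. It held 139 of 5298 cells (2.62%), 0 to 11 in a sample, with a median depth of 17283 UMIs against 13156 in the others, and 24 cells lay within 2-fold of the threshold. EPCAM was 348 CPM in these cells and 37.2 CPM in the others. Member UMIs were set against the number expected from the other cells of the same samples. IL6 was 8.29 times the expected number (6.23 to 10.8), and these cells held 54 of all 259 IL6 UMIs, 20.8%. CSF2, CSF3, IL1A and IL1B were below the expected number: CSF2 0.277 (0.151 to 0.465), CSF3 0.229 (0.0987 to 0.450), IL1A 0.184 (0.0880 to 0.338), and IL1B 0.539 (0.434 to 0.662). Here too the intervals take UMIs as independent and do not cover the spread between cells. Variance within samples was 2.29 (CSF2) to 9.34 (IL1B) times Poisson for these 4 genes and 3.91 times for IL6. The 8 CSF3 UMIs lay in 6 cells. For IL1B, 41 of the 91 UMIs were in HTO8/HTO10, at 223 CPM against 164 in the other cells. Its level was higher in 7 samples and lower in 16. With a threshold of 0.025%, added after seeing the data, the IL1B ratio was 0.732 (0.614 to 0.866). For IL1A, 6 of the 10 UMIs lay in 1 cell. CSF1 at 0.786 (0.592 to 1.02) and LIF at 1.22 (0.938 to 1.57) had intervals that included 1. CXCL10 and NFKBIA were also lower in the KRT81-high cells, at 0.494 and 0.550 times the expected number.

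The IL6 excess rested on few cells and samples. In HTO3/HTO10, 8 KRT81-high cells held 25 IL6 UMIs and the other 256 cells held 5. In HTO4/HTO10 it was 10 UMIs in 5 cells against 6 in 235, and in HTO2/HTO10 9 UMIs in 3 cells against 14 in 238. These 3 samples are named because their values were the highest. Over the 23 samples with such cells, the IL6 level was higher in the KRT81-high cells in 10, which were all those where these cells had any IL6 UMI. It was lower in 11, in each of which the few KRT81-high cells had no IL6 UMI, so this split cannot show a direction. Without HTO3/HTO10 the ratio to the expected number was 4.58 (3.07 to 6.58). Without all 3 it was 1.66 (0.795 to 3.05), from 10 UMIs in 123 cells, so an excess outside these samples was not detectable at this depth. Left to the other cells, the IL6 level was 1.35 CPM in place of 7.83 in HTO3/HTO10 and 1.77 in place of 4.59 in HTO4/HTO10, while in HTO3/HTO9, where 2 such cells had no IL6 UMI, it was 14.5 in place of 14.3.

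**Figure D5:**
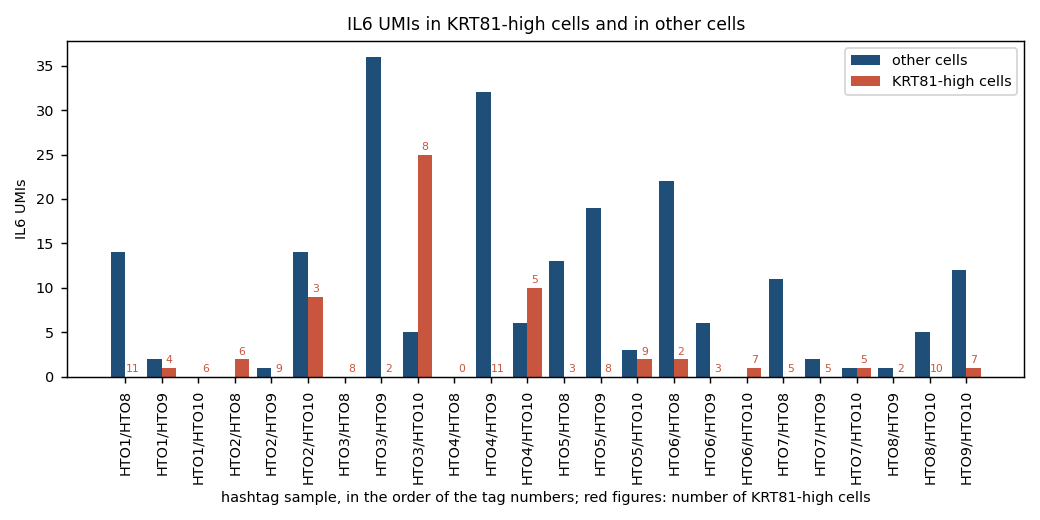
IL6 UMIs (vertical axis) in KRT81-high cells (red) and in all other cells (blue) of each hashtag sample, in the order of the tag numbers, with the number of KRT81-high cells printed in red. In HTO3/HTO10 8 KRT81-high cells hold 25 UMIs against 5 in the others, and in HTO3/HTO9 all 36 UMIs are in other cells.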

How the data were processed

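The series held 2 gene-expression and 2 hashtag libraries of 1 pool. The authors deposited UMI counts per gene and barcode. The file headers name Cell Ranger 5.0.1. The submitters' processing notes give version 2.1.1 of that tool, with the build GRCh38. The annotation version is not given in the sources used here. Coordinates were taken from GENCODE on GRCh38, by identifier.

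Barcodes under 1000 genes or over 20% mitochondrial UMIs were left out. The rest were given a tag pair where each of the leading 2 tags had at least 3 times the count of the next one. Pairs leading at least 100 barcodes counted as in use. No doublet caller was run. Barcodes with a further tag near those 2, as in doublets of 2 cultures, were left without a pair. Counts were summed per sample and divided by the total (CPM), with no gene length, since 3′ counts do not scale with it. Intervals are exact Poisson, binomial or conditional binomial ones. A fold against 0 counts was taken against 3 counts in that sample. Computation used numpy 2.4.6, scipy 1.17.1 and pandas 2.3.3 in Python 3.11.15, and the range and variance calculations were checked on simulated data.

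The members and lists were chosen with earlier results of these data known. Named genes are the members, the 3 genes most like each member that averaged 5 CPM or more, list genes averaging 20 CPM or more or with a 4-fold range, and cell markers. List genes below that, and the genomic neighbours, were named for their role or place. The motifs and the samples singled out in the text were chosen after sequences or values were seen. An edgeR quasi-likelihood test of KRT81-high against other cells was run and its results were seen, but on simulated data it called unchanged genes, so it was dropped and counts with intervals are given instead. Alternatives covered the cell filter, tag margin, scaling, pseudocount, mean filter, thinning, KRT81-high cells and HTO3/HTO9. Values without other samples were added after seeing the data.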

Additional observations from a re-analysis of the deposited data

Results flagged for a closer look

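Some member signal lay in barcodes that enter no hashtag sample. In the 1110 kept cells without a clear tag pair, CSF3 was at 23.9 CPM and IL1B at 57.5 CPM, against 21.9 and 75.2 CPM in all tagged cells. In the 4252 barcodes that failed the filters, CSF3 was at 23.0 CPM and IL1B at 28.3 CPM. These were singled out because they are signal in data outside the hashtag samples, above the level that 3 counts give (0.147 and 0.254 CPM). The median depth was 17091 UMIs in the cells without a pair and 2172 UMIs in the barcodes that failed. The condition of these barcodes is not known.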

How the results depend on the processing

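No paired analysis was possible because the hashtag samples carry no condition or replicate number and no result comes from a test. Of the 6 members that passed the mean filter, 5 ranged 4-fold or more. The count was also 5 with a pseudocount of 1 CPM, a mean of at least 5 CPM and median-of-ratios scaling. It was 5 without KRT81-high cells (added after seeing the data). It was 5 too under a stricter cell filter (2000 genes, 10% mitochondrial UMIs), where 5 members passed the mean filter. CSF2, CSF3 and IL1A passed the filter of 20 CPM only through their own highest sample, so this count is not read as support. The count was 3 with a pseudocount of 50 CPM (CSF3, IL1A and IL1B), 3 without HTO3/HTO9 and 0 with a mean of at least 100 CPM, which no member reached. The share of all genes was 4.13%, 6.97% and 1.42% with pseudocounts of 10, 1 and 50 CPM, and 2.91% without HTO3/HTO9. It was 3.10% and 6.00% with means of at least 5 and 100 CPM. With the stricter cell filter it was 5.32%, with median-of-ratios scaling 4.14% and without KRT81-high cells 4.22%. Members with variance of 1.5 times Poisson or more went from 4 to 1 after thinning. Of 42 alternatives of the highest levels, 4 left the main interval, and 3 of these moved by over 1.5 times. All 3 were in HTO3/HTO9 under the stricter cell filter, which left 30 of its 246 cells: CSF3 441, IL6 24.3 and IL1B 450 CPM. In 5 of the 42, another sample became the highest: HTO6/HTO8 for IL6 with a tag margin of 5 times, and otherwise for LIF. Depth limits IL6 most, at 0 to 36 UMIs a sample.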
